A study of Mus musculus with 6 samples.

Results

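Chemokines and chemokine receptors were followed in the distal jejunum of mice that lack Hnf4a in the intestinal epithelium. Members were taken by gene symbol, as those that start with Ccl, Cxcl, Ccr, Cxcr, Cx3c or Xcr and a family number, with Ccl5, Ccr9 and the Ccrl and Ccrn symbols left out. They numbered 47 of the 18193 genes on the array that had a probe set with exactly 1 symbol, 31 ligands and 16 receptors, and each was read from its brightest probe set. The rule itself used no measured value beyond the brightness of the probe set, but it was set with earlier results of these data known.

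The study held 3 control mice and 3 mutant littermates, all 7 months old, with 1 Affymetrix array per animal. All carried the strain label B6.129X1(FVB)-Hnf4atm1.1Gonz/J, a line with a conditional Hnf4a allele, and in the mutants the gene was deleted by a 12.4-kb Villin-Cre transgene, which is active in the gut epithelium. The labels used here do not say whether the controls carried the transgene. All animals received ketamine (300 mg/kg) and xylazine (40 mg/kg) before death. RNA came from biopsies of the whole jejunum, so leukocytes, stroma and muscle were measured with the epithelium, and fewer cells of a type and less RNA per cell cannot be told apart. Hnf4a encodes a nuclear receptor that controls metabolic and epithelial genes of gut and liver.

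Chemokines are small secreted proteins that direct the movement of leukocytes, and they are classed by the spacing of their first cysteines. Their receptors couple to inhibitory G proteins on the leukocyte surface. In the small intestine, epithelial ligands such as Ccl25 and Ccl28 draw lymphocytes and plasma cells to the mucosa, Cxcl13 organises B cell follicles, and the interferon-induced ligands Cxcl9 and Cxcl10 attract T cells through Cxcr3.

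The values were the authors' deposited log2 signals. Array medians lay between 3.93 and 3.98, and rank correlations between arrays between 0.980 and 0.987. Hnf4a fell from 11.72 ± 0.13 (SD, n = 3) in controls to 9.16 ± 0.57 (SD, n = 3) in mutants (limma, adjusted p = 0.00756). Control 3 carried pancreatic transcripts, with a mean log2 signal of 8.06 over 7 acinar genes against at most 4.77 on the other arrays. Mutant 2 carried more fat transcripts, 8.56 over 8 genes against at most 7.23 elsewhere. Control 1 and mutant 3 were male by the mean of 3 Y-linked genes, which read 5.54 and 5.62 there and at most 2.70 on the other arrays. The labelled tissue had its defining markers: the 11 measured epithelial markers averaged 11.72, 11.72 and 11.65 in controls 1 to 3 and 11.72, 11.75 and 12.03 in mutants 1 to 3. Of these, 0 passed the test and 3 (Elf3, Cdh1 and Krt18) had an unadjusted p under 0.05, all higher in the mutants. That was so for 5.24% of all genes, and the median difference over the list was 0.04.

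No chemokine or receptor passed the test. At an adjusted p under 0.05 over all genes (limma with Benjamini-Hochberg adjustment), 0 of 47 members were called, against 0.528% of all genes (96 genes, or 24 without control 2, 22 without control 3 and 41 without mutant 2). At an unadjusted p under 0.05 there were 11 members, or 23.4%, against 12.1% of all genes. Of these, 9 lay higher in the mutants (19.1%, against 5.24% of all genes) and 2 lay lower (4.26%, against 6.85%). The 11 were Ccl8, Cxcl13, Cxcl9, Cxcl10, Ccl22, Cx3cl1, Cxcr3, Cxcr4 and Xcr1 on the higher side and Ccl9 and Cxcl11 on the lower side. All 3 mutants lay above all 3 controls for 5 members (10.6%, against 6.93% of all genes) and below them for 3 (6.38%, against 10.2%). The count at an unadjusted p under 0.05 was 7 without control 3 and 5 without control 3 and mutant 2 together, namely Ccl8, Cxcl13, Cxcr3, Ccl9 and Cxcl11.

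Most members differed little between the groups. The mutant mean was the higher one for 29 of 47 members (61.7%, against 46.7% of all genes). The difference was under 0.25 in size on the log2 scale for 31 of 47, and at least 1 for 3 (Cxcl9, Cxcl13 and Ccl8). The shares of all genes at these cutoffs were not counted. The median difference was 0.08 over the 47 members and -0.01 over all genes. For the 15 members whose mean exceeded that of the median gene (5.42), it was 0.17, and for all genes as bright it was -0.02. The signal was above the median probe set on all 6 arrays for 25 members and on none for 16. No detection calls were used, so a value under that median is read here as dim, close to where background may lie.

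**Figure D1:**
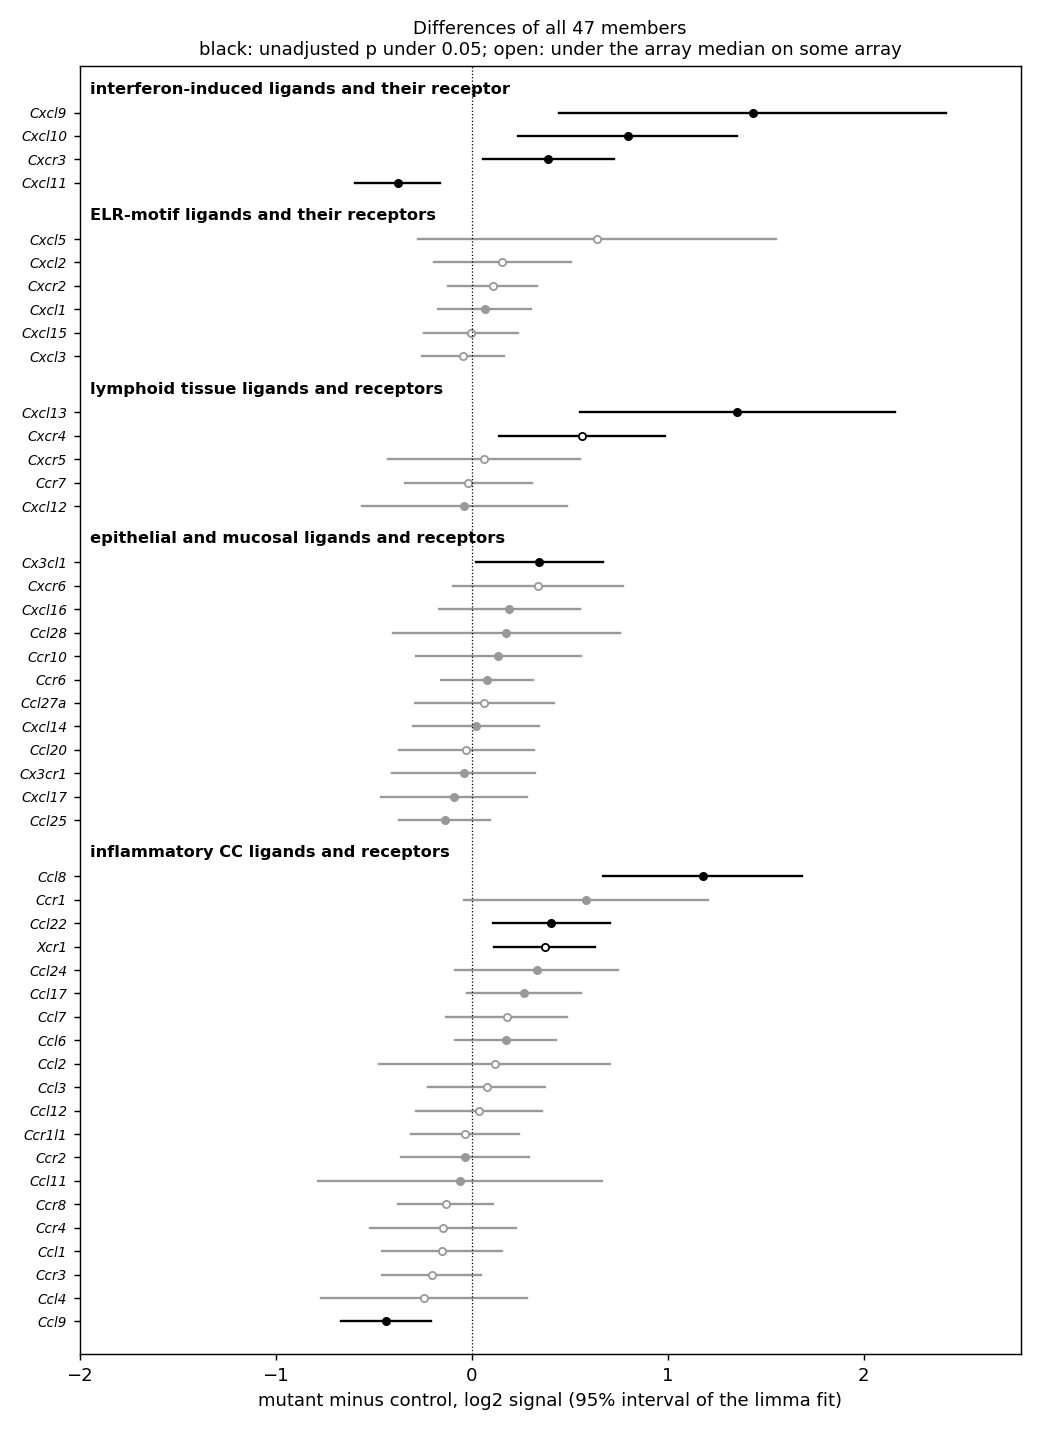
Mutant minus control difference in log2 signal (x axis) for each of the 47 members, grouped by role, with 95% intervals from the limma fit. Black marks the 11 members with an unadjusted p under 0.05, and open circles mark members under the array median on at least 1 array. The widest excursions are Cxcl9 at 1.43, Cxcl13 at 1.36 and Ccl8 at 1.18.

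The interferon-induced ligands and their receptor came first among the roles by median difference, at 0.59 over 4 genes. Cxcl9, which attracts activated T cells, read 7.25, 5.56 and 6.28 in controls 1 to 3 and 7.12, 8.19 and 8.08 in mutants 1 to 3. Control 1 lay just above mutant 1, so the groups overlapped, while controls 2 and 3 lay below every mutant. The difference was 1.43 ± 0.43 (SE) with a 95% interval of 0.45 to 2.42 (limma, adjusted p = 0.234). On the other, dimmer probe set of Cxcl9 the groups did not overlap, with control 1 at 4.15 and mutant 1 at 4.43. Cxcl10, which acts on the same receptor, read 5.32, 4.63 and 4.78 in controls and 5.30, 5.69 and 6.13 in mutants. Its groups met at control 1 and mutant 1, as those of Cxcl9 did on its brightest probe set. The difference of Cxcl10 was 0.80 ± 0.24 (SE) (limma, adjusted p = 0.243).

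Cxcr3, the receptor of both ligands, read 5.02, 4.64 and 4.70 in controls and 5.37, 4.98 and 5.20 in mutants. Control 1 again lay inside the range of the mutants, and the difference was 0.39 (95% interval 0.06 to 0.72, limma adjusted p = 0.329). The signal of Cxcl11, listed here as the other ligand of Cxcr3, went the opposite way. It read 4.67, 4.73 and 4.62 in controls and 4.28, 4.26 and 4.35 in mutants. Here the groups did not overlap and both SDs were 0.05, yet the difference of -0.38 did not pass (limma, adjusted p = 0.156). A further probe set of Cxcl11 was dim and differed by -0.01. Cxcl11 had no entry in the RefSeq gene order used here. Whether these mice make a working Cxcl11 protein was not tested, so its signal is not read as ligand activity.

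Promoter sequence is shown for the pair Cxcl9 and Cxcl10, which lie near each other with 1 other protein-coding gene between them and were both higher in the mutants. The windows are from RefSeq on GRCm38.p6 and run from 250 bases before the gene start to 50 after it, 5′ to 3′ on the minus strand, at chr5:92328030-92328329 for Cxcl9 and chr5:92348840-92349139 for Cxcl10. Capitals mark matches, on either strand, to an interferon response element (2 copies of TTTC with 2 bases between them), a gamma-activated site (TTCNNNGAA), the NF-kappa-B consensus or an HNF4 site of the form CAAAGNNCA.
Cxcl9: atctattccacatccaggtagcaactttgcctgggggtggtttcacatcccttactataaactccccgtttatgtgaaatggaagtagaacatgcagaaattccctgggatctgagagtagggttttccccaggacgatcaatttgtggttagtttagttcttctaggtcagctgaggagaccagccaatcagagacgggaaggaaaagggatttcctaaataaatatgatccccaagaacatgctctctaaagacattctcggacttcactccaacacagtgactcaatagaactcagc
Cxcl10: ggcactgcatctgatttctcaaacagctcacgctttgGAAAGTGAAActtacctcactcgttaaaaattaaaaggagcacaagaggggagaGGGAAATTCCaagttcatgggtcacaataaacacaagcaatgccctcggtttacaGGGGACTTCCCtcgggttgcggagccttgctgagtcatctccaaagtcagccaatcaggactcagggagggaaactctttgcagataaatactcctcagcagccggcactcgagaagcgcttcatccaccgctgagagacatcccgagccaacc
Cxcl10 held GAAAGTGAAA, a match to the interferon response element, from 213 to 204 bases before the start. It also held the NF-kappa-B consensus as GGGAAATTCC from 159 to 150 bases before the start, and again, as overlapping matches, from 104 to 94 bases before it. Cxcl9 held no match to any of the 4 motifs in this window.

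Of the 5 lymphoid tissue genes, Cxcl13 differed most. Cxcl13, the ligand that draws B cells into follicles, read 6.68, 5.67 and 5.06 in controls and 7.04, 7.25 and 7.19 in mutants. Every mutant lay above every control, and the controls were spread over a range many times that of the mutants, with SDs of 0.82 and 0.11. The difference was 1.36 ± 0.35 (SE), or 2.56-fold, with a 95% interval of 0.55 to 2.16 (limma, adjusted p = 0.170). Without control 1, the highest control, it was 1.79 and passed (limma, adjusted p = 0.0249). A further Cxcl13 probe set differed by 0.81 in the same direction, with control 1 at 6.51 above mutant 1 at 6.29 and with an adjusted p of 0.410 over all probe sets (limma).

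Cxcr5, the receptor of Cxcl13 on B cells and follicular T cells, was dim at 2.72 to 3.64 in controls and 3.13 to 3.22 in mutants, and differed by 0.06, or by 0.32 without control 1, its highest array, and by -0.14 without control 2. Cxcl12, the stromal ligand of Cxcr4, read 7.23, 7.53 and 7.31 in controls and 7.74, 7.44 and 6.78 in mutants. Its groups overlapped fully, with a difference of -0.04 and a 95% interval of -0.56 to 0.49. Cxcr4 itself was under the array median on every array, at 3.09, 2.94 and 2.85 in controls and 3.09, 3.74 and 3.75 in mutants. Mutant 1 lay with the controls, the difference was 0.56 (limma, adjusted p = 0.273), and without mutant 1 it was 0.78 and passed (limma, adjusted p = 0.0498). Ccr7, which guides dendritic and naive T cells to lymph nodes, differed by -0.02.

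Ccl8 had the smallest p of all members. It is an inflammatory CC ligand made mainly by macrophages, and read 5.25, 4.48 and 4.92 in controls and 5.72, 6.15 and 6.31 in mutants. Every mutant lay above every control. The difference was 1.18 ± 0.22 (SE), or 2.26-fold, with a 95% interval of 0.67 to 1.69 (limma, adjusted p = 0.0760). It passed with array weights (limma, adjusted p = 0.0460) and with Y-linked signal as a covariate (limma, adjusted p = 0.0283), and over all alternatives the adjusted p ran from 0.0283 to 0.563. The genes on either side of Ccl8 in its cluster on the genome, Ccl12 and Ccl1, differed by 0.04 and -0.15, and Ccl2, Ccl7 and Ccl11 of the same cluster by 0.12, 0.18 and -0.06.

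Ccl9 and Ccl6, which are neighbours and both encode ligands of Ccr1, differed in opposite directions. Ccl9 read 7.76, 7.81 and 7.96 in controls and 7.44, 7.41 and 7.37 in mutants. The groups did not overlap, with an SD of 0.10 in controls and 0.03 in mutants, at a difference of -0.44 ± 0.10 (SE) with a 95% interval of -0.67 to -0.21 (limma, adjusted p = 0.128). Its other probe set differed by -0.64 (limma, adjusted p = 0.125 over all probe sets). Ccl6 read 10.78, 10.93 and 10.72 in controls and 11.01, 11.09 and 10.84 in mutants. Mutant 3 lay inside the range of the controls, and the difference was 0.17 (limma, adjusted p = 0.613), while its other probe set differed by 0.49 (limma, adjusted p = 0.390 over all probe sets). The receptor Ccr1 read 5.21, 4.73 and 5.22 in controls and 5.07, 5.65 and 6.20 in mutants, a difference of 0.58 with overlap at mutant 1 (limma, adjusted p = 0.449). It was 0.30 without mutant 3 and 0.87 without mutant 1.

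The promoter windows of these neighbours are shown because both hold the HNF4 form searched. They are on the minus strand of GRCm38.p6 (RefSeq), at chr11:83578587-83578886 for Ccl9 and chr11:83593038-83593337 for Ccl6, with capitals as above.
Ccl9: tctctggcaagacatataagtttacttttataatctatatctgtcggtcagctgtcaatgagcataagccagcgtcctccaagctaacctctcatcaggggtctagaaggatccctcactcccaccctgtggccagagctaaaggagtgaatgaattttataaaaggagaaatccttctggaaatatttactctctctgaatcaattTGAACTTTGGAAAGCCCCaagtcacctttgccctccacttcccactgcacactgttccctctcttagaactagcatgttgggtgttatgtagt
Ccl6: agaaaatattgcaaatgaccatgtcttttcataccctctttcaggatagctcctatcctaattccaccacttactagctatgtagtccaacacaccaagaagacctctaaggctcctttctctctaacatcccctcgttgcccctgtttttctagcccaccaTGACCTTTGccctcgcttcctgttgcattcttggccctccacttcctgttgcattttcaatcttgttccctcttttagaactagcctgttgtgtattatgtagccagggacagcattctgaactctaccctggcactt
Ccl9 held TGAACTTTG, the form read on the other strand, from 43 to 35 bases before the start, and an NF-kappa-B match, GGAAAGCCCC, that shares 1 base with it and runs to 26 bases before the start. Ccl6 held TGACCTTTG from 88 to 80 bases before the start. A match of letters is not a binding site, and binding was not measured.

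The remaining inflammatory CC genes were mostly dim or alike in both groups. Over all 20 genes with this role, 11 had a higher and 9 a lower mutant mean, with a median difference of 0.06. These counts include Ccl8, Ccl9, Ccl6 and Ccr1 from above, and Xcr1, which was listed with this role. Ccl22 and Ccl17, the ligands of Ccr4, lie in a row with Cx3cl1 on the genome, with no other protein-coding gene between them. Ccl22 read 4.61, 4.34 and 4.34 in controls and 4.65, 4.87 and 4.99 in mutants, and Ccl17 4.82, 4.46 and 4.81 against 5.01, 4.99 and 4.88. For both, every mutant lay above every control, by 0.41 and 0.27 on average (limma, adjusted p = 0.265 and 0.457). Their receptor Ccr4 was dim and differed by -0.15. The receptors Ccr8 and Ccr1l1 were under the array median on every array and differed by -0.13 and -0.03.

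Ccl24, an eosinophil attractant, read 5.36, 4.98 and 5.44 in controls and 5.35, 5.50 and 5.93 in mutants, a difference of 0.33 with overlap at mutant 1, which was 0.16 without mutant 3 and 0.19 without control 2. Ccl11, eotaxin, read 5.56, 6.41 and 6.56 in controls and 6.05, 5.64 and 6.65 in mutants, with overlapping groups and a difference of -0.06. Their receptor Ccr3 was dim on every array and differed by -0.20.

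Xcr1, a receptor of cross-presenting dendritic cells, was under the array median on every array, at 2.53 to 2.73 in controls and 2.88 to 3.14 in mutants, so its difference of 0.37 rests on dim values. Ccl2 and Ccl7, which draw monocytes through Ccr2, differed by 0.12 and 0.18, and Ccr2 by -0.03. Ccl3 and Ccl4 differed by 0.08 and -0.24, and in Ccl4 control 1 read 4.72 against 3.70 to 4.10 on the other arrays. Without control 1 the difference of Ccl4 was 0.02.

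The 12 epithelial and mucosal genes had a median difference of 0.07, with 8 higher and 4 lower in the mutants. Ccl25, the ligand that homes lymphocytes to the small intestine, read 11.71, 11.59 and 11.59 in controls and 11.45, 11.60 and 11.43 in mutants. Mutant 2 lay inside the range of the controls, and the difference was -0.14 (95% interval -0.37 to 0.09). Ccl28, which draws plasma cells to mucosae, read 7.59, 7.54 and 7.62 in controls and 7.47, 8.42 and 7.39 in mutants. Mutant 2 alone lay above the controls on this probe set, and without it the difference turned from 0.18 to -0.15. Other, dimmer probe sets of Ccl28 differed by 0.22 and 0.06. On the one that differed by 0.22, mutants 1 and 3 lay above every control, and mutant 2 at 5.43 lay below control 1 at 5.45. Ccr10, the receptor of Ccl28, differed by 0.14.

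Cx3cl1, the membrane-bound ligand fractalkine, read 8.31, 7.92 and 7.90 in controls and 8.53, 8.26 and 8.38 in mutants. Control 1 lay between mutants 2 and 3, and the difference was 0.35 (95% interval 0.02 to 0.67, limma adjusted p = 0.372), while its 3 other probe sets differed by 0.02 to 0.06. Its receptor Cx3cr1, carried by intestinal macrophages, read 6.14, 6.19 and 5.98 in controls and 6.12, 6.33 and 5.73 in mutants, with overlapping groups and a difference of -0.04.

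Cxcl16, which is made in a membrane-bound form too, read 7.33, 7.41 and 7.32 in controls and 7.20, 7.63 and 7.81 in mutants. Mutant 1 lay below every control and mutants 2 and 3 above, at a difference of 0.19. On the other probe set of Cxcl16 the difference was 0.32, with mutant 1 at 6.98 above every control and mutant 2 at 6.88 below control 1 at 6.89. Cxcr6, the receptor of Cxcl16, differed by 0.34. Ccl20, which recruits cells through Ccr6 to lymphoid follicles, differed by -0.03 and Ccr6 by 0.08. Cxcl14 read 6.48, 6.22 and 6.15 in controls and 6.37, 6.09 and 6.46 in mutants, with overlapping groups and a difference of 0.02. Cxcl17 and Ccl27a differed by -0.09 and 0.07.

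The ELR-motif ligands, which attract neutrophils through Cxcr2, were mostly dim. Cxcl1, the one above the median probe set on every array, read 6.29, 6.26 and 6.29 in controls and 6.36, 6.21 and 6.46 in mutants. The groups overlapped at a difference of 0.07 (95% interval -0.17 to 0.30). Other probe sets of Cxcl1 differed by 0.26 and 0.18, and on both mutant 3 was the highest array, at 4.38 and 6.46. Cxcl5 read 2.41 to 2.47 in controls, 2.63 and 2.42 in mutants 1 and 2, and 4.16 in mutant 3. A single animal thus made its difference of 0.64 (limma, adjusted p = 0.596). Cxcr2, their receptor, read 3.27 to 3.40 in controls and 3.36 to 3.51 in mutants and differed by 0.11. Cxcl2, Cxcl3 and Cxcl15 differed by 0.16, -0.04 and 0.00. The neutrophil list was dim too, with 8 of 11 measured genes under the array median on all arrays, and averaged 3.40 to 3.51 in controls and 3.32 to 3.64 in mutants.

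**Figure D2:**
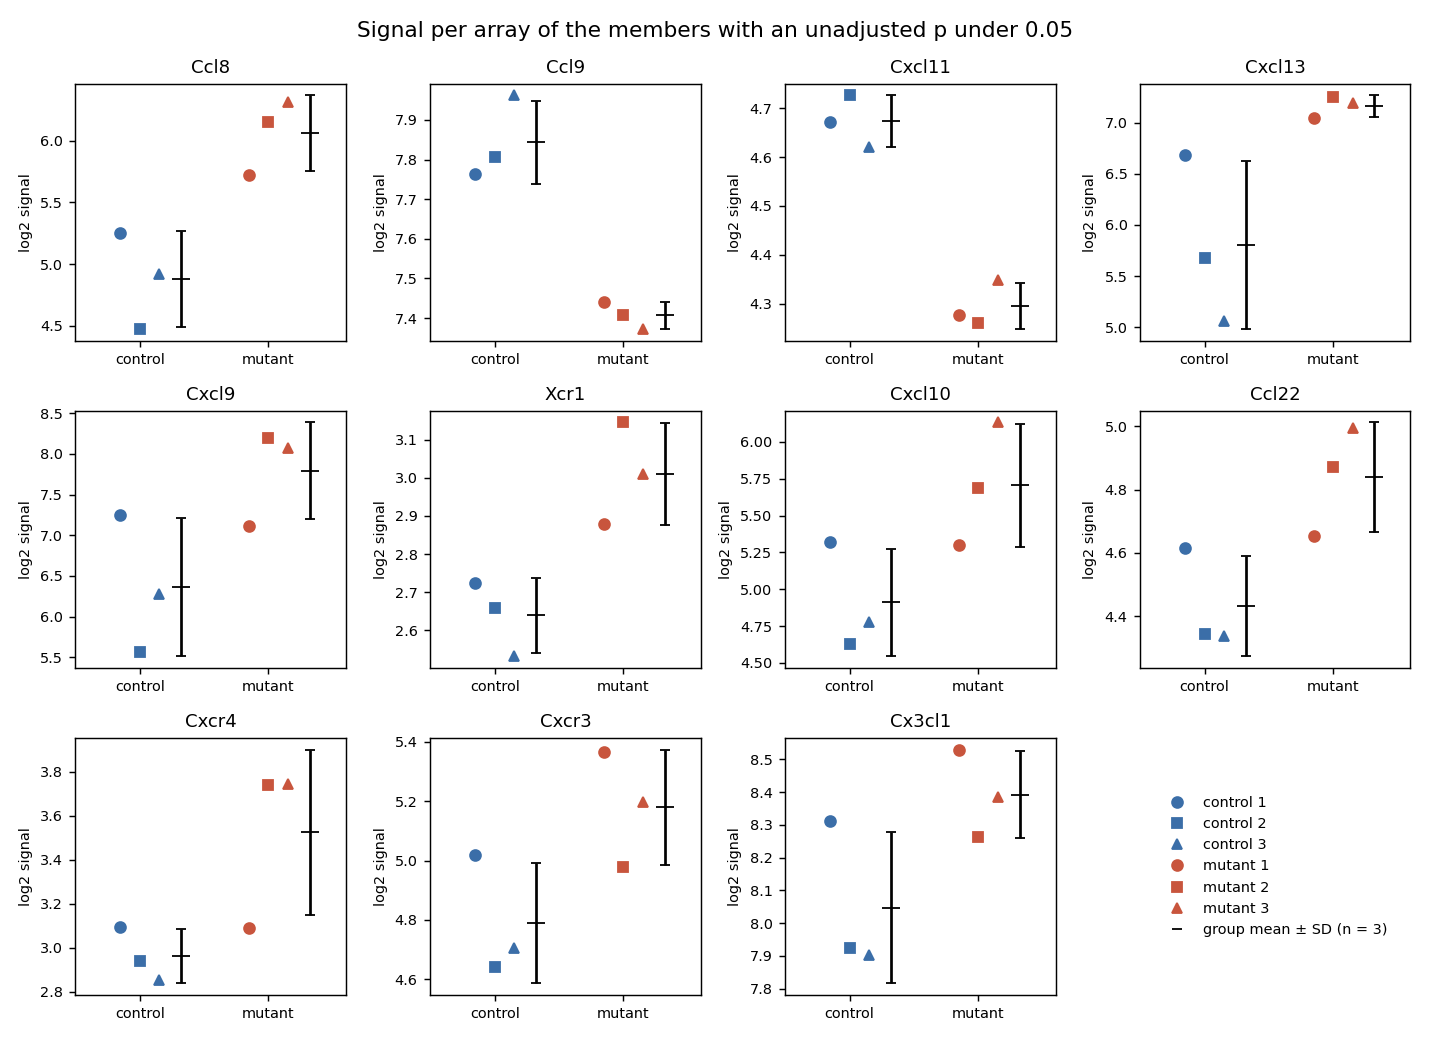
Log2 signal (y axis, scaled for each gene) of the 11 members with an unadjusted p under 0.05, with 1 point per array and the group mean with SD (n = 3). Control 1, the blue circle, is the highest control in all 9 genes that were higher in the mutants, and for Cxcl9 it reads 7.25 against 7.12 in mutant 1.

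Control 1 was the highest control more often among the members than over all genes. In the 9 genes on the higher side, control 1 was the highest control in 9, and over all 47 members it was so in 26 (55.3%, against 36.3% of all genes). Among the 15 members brighter than the median gene it was so in 6, against 32.4% of all genes as bright. Mutant 1 was the lowest mutant in 7 of the 9, but the same share over all genes was not counted, and the 9 were picked for their difference. The mean over all members was 4.98, 4.77 and 4.80 in controls 1 to 3 and 4.95, 5.02 and 5.12 in mutants 1 to 3, so control 1 lay inside the range of the mutants. With 1 array left out, the difference of Cxcl9 ran from 1.03 to 1.87, that of Cxcl13 from 0.98 to 1.79 and that of Ccl8 from 0.98 to 1.36, while that of Ccl9 stayed between -0.48 and -0.38.

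**Figure D3:**
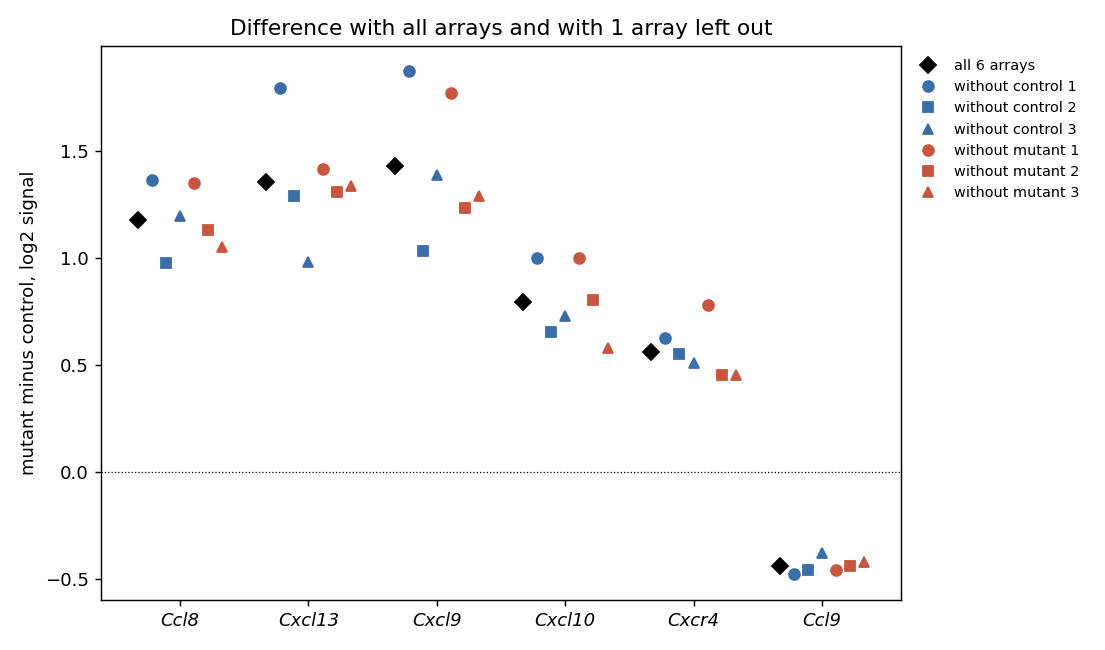
Mutant minus control difference in log2 signal (y axis) for 6 members, with all 6 arrays (black diamond) and with each array left out in turn (blue for a control, red for a mutant). Cxcl9 moves between 1.03 and 1.87, Ccl9 between -0.48 and -0.38, and no point crosses 0.

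Further probe sets mostly lay on the same side as the brightest one. For 17 members another 24 probe sets were on the array, of which 21 differed in the direction of the brighter one, 5 had an unadjusted p under 0.05 and 0 passed over all probe sets. The 5 belonged to Cxcl9, Cxcl13, Ccl9, Ccl6 and Ccr1. The same shares over the further probe sets of all genes were not counted. The second Cxcl9 probe set differed by 1.24 (limma, adjusted p = 0.167 over all probe sets).

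Genes that act with the chemokines were read from lists. Over all genes, 0.528% passed the test. At an unadjusted p under 0.05, 5.24% of all genes lay on the higher side and 6.85% on the lower side. Among genes brighter than the median gene these shares were 7.19% and 10.2%. In the signalling list downstream of the receptors, 0 of 33 measured genes passed, 7 had an unadjusted p under 0.05 on the higher side and 1 on the lower side, and the median difference was 0.16. Pik3r5, a regulatory subunit of the lipid kinase that chemokine receptors activate, and Vav1, an exchange factor for Rac, differed by 0.52 and 0.77 (limma, adjusted p = 0.0839 and 0.104). Of 11 atypical receptors and ligands outside the rule, 0 passed and 2 had an unadjusted p under 0.05, Pf4 at 0.38 and the scavenging receptor Ackr3 at 0.53. Among 27 cytokines and NF-kappa-B regulators, 0 passed and the median was 0.22, with 8 on the higher and 3 on the lower side at an unadjusted p under 0.05. Tlr4, the endotoxin receptor, differed by 0.97 and Ifngr2, a chain of the interferon gamma receptor, by -0.58 (limma, adjusted p = 0.0964 and 0.238).

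Interferon gamma targets had a higher mean in all 20 measured genes, against 46.7% of all genes. Gbp7, a guanylate-binding protein, rose by 0.98 ± 0.12 (SE) and was the 1 gene past the test (limma, adjusted p = 0.0218). A total of 10 had an unadjusted p under 0.05, all on the higher side, against 5.24% of all genes on that side. The median difference was 0.63. The list averaged 7.84, 6.76 and 7.05 in controls 1 to 3 and 7.72, 8.18 and 8.14 in mutants 1 to 3. Control 1 lay inside the range of the mutants, as for Cxcl10 and the brightest probe set of Cxcl9.

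Marker lists of T cells, B cells and myeloid cells had median differences of 0.58, 0.31 and 0.25, and their part in the differences of the members was not tested. Over all genes, 0.528% passed the test, and 5.24% were higher and 6.85% lower at an unadjusted p under 0.05. The T cell list averaged 6.22, 5.36 and 5.74 in controls and 6.03, 6.58 and 6.32 in mutants, with 1 of 18 genes past the test and 6 at an unadjusted p under 0.05, all higher. That gene was Il7r, the interleukin-7 receptor, which rose by 0.61 (limma, adjusted p = 0.0434). The B cell list averaged 5.97, 5.26 and 5.03 in controls and 5.81, 5.72 and 5.96 in mutants, with 0 of 15 past the test and 3 at an unadjusted p under 0.05. Control 1 read higher than every mutant in this list. The macrophage and dendritic cell list, which holds Xcr1, averaged 6.16 to 6.25 in controls and 6.35 to 6.57 in mutants, with no overlap, 0 of 18 past the test, 6 at an unadjusted p under 0.05 on the higher side and 1, Lyz2, on the lower side. Markers under the array median on all arrays numbered 2, 4 and 1 in these 3 lists.

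The stromal, endothelial, muscle and mast cell lists overlapped between the groups. Lymphatic and lymphoid stroma averaged 4.98 to 5.09 in controls and 4.98 to 5.15 in mutants, blood endothelium 5.28 to 5.65 and 5.32 to 5.69, fibroblasts 7.91 to 8.22 and 8.09 to 8.48, and smooth muscle 9.82 to 10.20 and 9.90 to 10.13. Mast cells and eosinophils averaged 3.73 to 4.58 and 4.21 to 4.67. None of the genes on these lists passed the test. At an unadjusted p under 0.05, 2 of 11 mast cell and eosinophil genes and 1 of 9 fibroblast genes were higher. That was so for 5.24% of all genes, and no other gene on these lists had such a p. Ccl5 and Ccr9, outside the rule, differed by 1.51 and 0.47 (limma, adjusted p = 0.270 and 0.280), and Ccl5 read 10.15 in control 1 against 7.96 and 8.94 in controls 2 and 3.

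**Figure D4:**
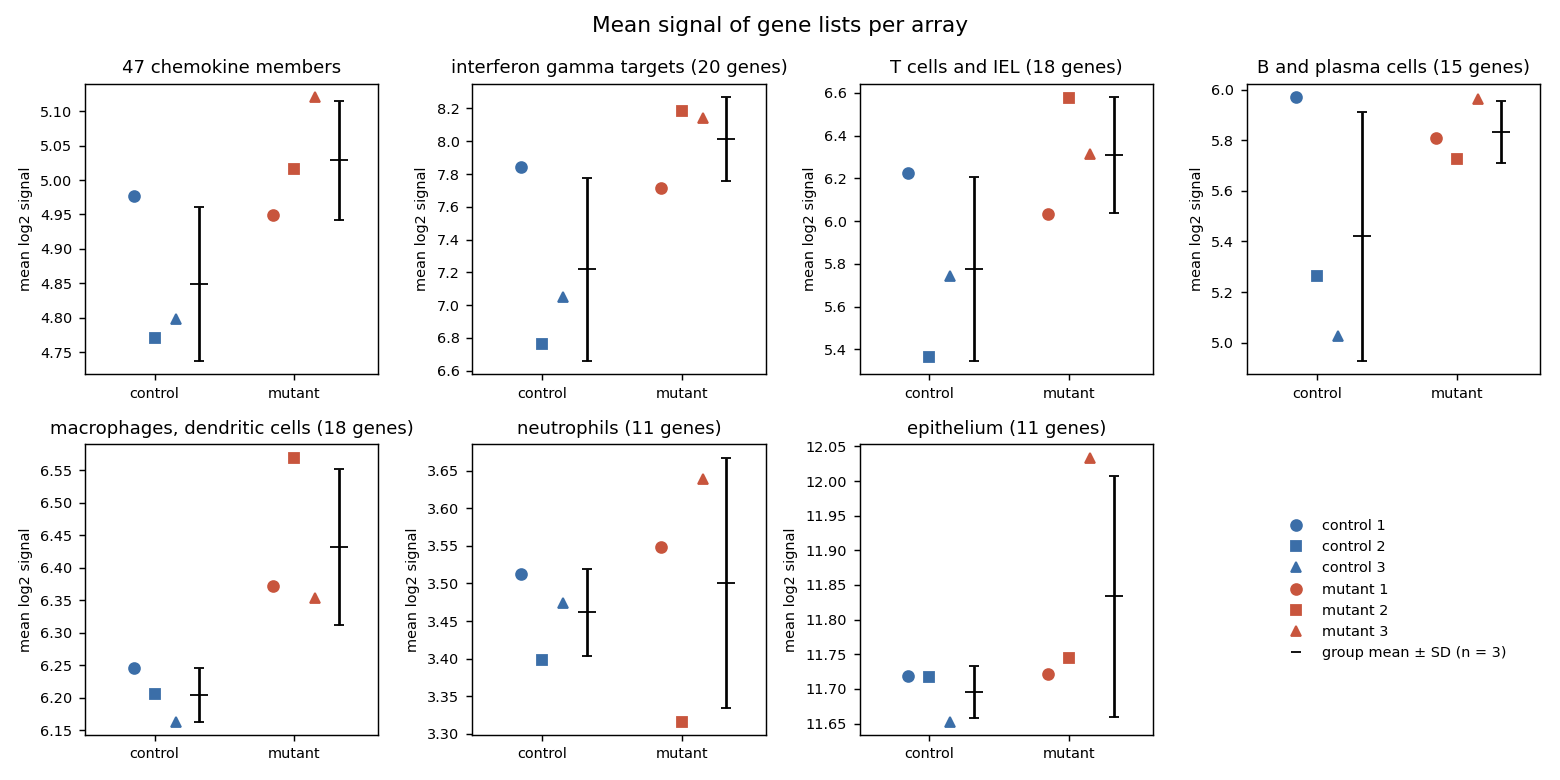
Mean log2 signal per array (y axis, scaled for each panel) of the 47 members and of 6 gene lists, with 1 point per array and the group mean with SD (n = 3). Control 1 lies inside or above the range of the mutants for the members, the interferon gamma targets, the T cell list and the B cell list, and below it, at 6.25, for the macrophage and dendritic cell list.

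Over the promoters of the family, 35 of 47 members had a window in the RefSeq table, with 39 windows in all. The NF-kappa-B consensus was in 11 of the 39 windows (28.2%, against 8.46% of 32851 windows of all genes). Among them were Cxcl1, Cxcl2 and Cxcl3, which shared GGGAATTTCC and showed differences of 0.16 or less on their brightest probe sets. The interferon response element was in 2 windows (5.13%, against 3.44%), of Cxcl10 and Cxcl14. The gamma-activated site was in 4 (10.3%, against 8.3%), of Ccl17, Ccr1l1, Ccr6 and Cxcl14, and the HNF4 form in 4 (10.3%, against 6.36%), of Ccl9, Ccl6, Ccl27a and Ccr6. Ccl8 and Cxcl13 held none of the 4 motifs.

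The genes of the whole table nearest in pattern to the member with the smallest p of each role were listed by Pearson r over the 6 arrays, among the genes brighter than the median gene. These values include the difference between the groups and are the highest of a long search. For Ccl8 they were Trim59, Tmsb10, Gbp6, Sf3a3 and Iigp1 (r = 0.98 to 0.99), for Cxcl13 Prkch, Sema4d, Clu, M6pr and Fabp6 (r = 0.98), and for Cx3cl1 Kpnb1, Ptk2b, Ubap2l, Stx6 and Parp11 (r = 0.97 to 0.99). For Cxcl11 they were Dennd3, Arfip2, Chmp4c, Trappc10 and Hnf4a, and for Cxcl5, which follows mutant 3, Sec63, C2cd4b, Shb, Zbtb1 and Efnb2.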

How the data were processed

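RNA of 6 jejunum samples, 3 control and 3 mutant, was hybridised to Affymetrix arrays, per the labels. The authors deposited 1 log2 signal per probe set and array; how they corrected, summarised and normalised it is not stated there, and the range of values (1.80 to 14.54) was taken to show a log2 scale. After 64 control probe sets were left out, 45037 remained, of which 34945 had 1 symbol in the platform annotation, 932 several and 9160 none listed. Each gene took its brightest probe set with 1 symbol. The contrast of mutant and control was fitted in limma 3.58.1 (two-sided, moderated by eBayes; R 4.3.3) with no covariate and Benjamini-Hochberg adjustment over 18193 genes. The procedure was tested on simulated data. Promoter windows and gene order came from RefSeq (GRCm38.p6); the series names no build.

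The members and lists were chosen with earlier results of these data known, and the 4 promoter motifs after the values were seen. Values per array were to be given for 16 bright members with the smallest p, the 2 brightest of each role and their partners; others were named after their values were seen. Alternatives were quantile or median scaling, a floor (20th percentile), removal of dim genes, averaged probe sets, a robust variance trend, weighted arrays (statmod 1.5.0), the replicate block and leaving out each array, with 2 added after the data were seen.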

Additional observations from a re-analysis of the deposited data

How the results depend on the processing

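With 1 array left out, 0 to 1 members passed the test, 7 to 14 had an unadjusted p under 0.05 and the median difference ran from 0.05 to 0.12. The single calls were Cxcl13 without control 1 and Cxcr4 without mutant 1. With array weights 1 member passed (Ccl8), and with the Y-linked covariate 2 passed (Ccl8 and Cxcl10); with the other alternatives 0 did. At an unadjusted p under 0.05 there were 6 of 17 members with the filter on dim probe sets, which tests fewer genes, and 5 without control 3 and mutant 2 together, which leaves fewer samples. The replicate block gave 12 such members and 0 calls; the labels do not pair same-numbered animals, whose deviations correlated at 0.05, 0.07 and 0.00. The count of called genes over the whole table was 96, against 22 to 96 with 1 array left out, 2 with the floor, 62 with the replicate block, 150 with array weights, 196 with the Y-linked covariate and 4 without control 3 and mutant 2 together. No value of the 11 members with an unadjusted p under 0.05 turned its direction under any alternative run. Other differences did, of up to 0.24 in size (Ccl4 without control 1, 0.02): Cx3cr1 to 0.12 with the mean of probe sets and 0.039 with array weights, Ccl28 to -0.14 and Ccl11 to 0.37 without control 3 and mutant 2 together. With 1 array left out, Cx3cr1 ran from -0.17 to 0.12, Ccl11 from -0.37 to 0.17, Cxcl14 from -0.053 to 0.13 and Ccl28 from -0.15 to 0.36. Dim signal limits the 16 members under the array median on every array.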
